A study of Mus musculus with 50 samples.

Results

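Non-tumour liver of mice fed the American Lifestyle-Induced Obesity Syndrome (ALIOS) diet was compared with non-tumour liver of mice on control diet, across all genes. The livers were chosen by their tissue and diet labels alone and numbered 23 of the 50 libraries in the series. N1 to N12 were the 12 control diet livers, and N13 to N23 were the 11 ALIOS livers. All were liver of C3H/He mice, an inbred strain prone to liver tumours, with a harvest time of 48 weeks. None of these 23 had received the carcinogen diethylnitrosamine (DEN), which was given to other groups. ALIOS is a diet rich in trans-fat with fructose in the drinking water, used to model fatty liver disease. The non-tumour tissue came from a cohort in which many mice also carried liver tumours, and the labels do not tie a liver to a tumour or to its own animal. P-values therefore measure the spread between these samples.

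The question was which hepatocyte programmes differed with diet, and in particular which transcripts were lower. Hepatocytes take up, make, store, burn and export fat, make cholesterol and bile acids, and clear drugs through cytochrome P450 and conjugating enzymes. In rodents many of these genes are sex-biased. Male livers see growth hormone in pulses that activate the transcription factor STAT5b, female livers see it more steadily, and each pattern keeps its own set of genes high. Loss of the male pattern raises female-biased transcripts in a male liver and lowers male-biased ones.

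The libraries held 23968280 to 35091968 counts in genes, with control and ALIOS medians of 31152151 and 30763687. All 24 hepatocyte defining markers on the list were tested, and their summed level was 116047 to 171075 counts per 1000000 (CPM) on control diet and 105450 to 177788 on ALIOS. Transcripts of the Y-linked Ddx3y stood at 59.6 to 89.4 CPM in all 23 livers and Xist, the X-inactivation RNA of female cells, at 0 to 0.319, so every library read as male. Kidney markers were at 0.33 CPM or less in sum on control diet and at 5.85 or less on ALIOS, with none passing the filter on low counts. Of 18 pancreatic acinar markers only Cela1 passed. No 2 livers of a group agreed within sampling noise.

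Several control livers stood apart. N5, N6 and N7 held 18174, 9130 and 6391 CPM of Saa1, the acute phase serum amyloid A, against 45.9 to 475 in the other 9 control livers and 131 to 2511 on ALIOS. N6 also had the highest interferon-stimulated transcripts. N11 and N12 differed in clock genes: Arntl, the positive arm of the circadian clock, stood at 19.5 and 21.7 CPM against 0.75 to 2.50 in the other 21 livers, while the clock output gene Dbp was at 30.4 and 3.73 against 80.6 to 160. The 5 are kept below, and most counts below are also given without them, an alternative chosen after seeing the data.

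Of 13723 genes tested, 1542 (11.2%) were called changed by diet at an adjusted p under 0.05, from the quasi-likelihood test of edgeR, adjusted by the Benjamini-Hochberg method over all genes tested. All adjusted p-values below are from that test. On ALIOS 923 (6.73%) were higher and 619 (4.51%) lower. The higher genes moved further, with a median size of 0.784 on the log2 scale against 0.361 for the lower genes, and 277 of them (2.02% of genes tested) against 66 (0.481%) changed at least 2-fold, 343 (2.5%) in all. The lower genes were the more abundant, with a median level of 15.3 CPM against 4.05. Under upper quartile scaling 70% of 1517 calls were higher, against 59.9% here. Without N5 to N7, 1417 genes (10.2%) were called, 928 higher (6.71%) and 489 lower (3.54%). Without N11 and N12, 1131 (8.2%) were called, 703 higher (5.09%) and 428 lower (3.1%). Without all 5, 616 (4.38%) were called, 444 higher (3.16%) and 172 lower (1.22%), and 424 of the 616 were among the 1542. Leaving out a single liver gave 949 calls (without N17) to 2343 (without N13), with 957 without N19. Genes called lower numbered 339 without N19, 340 without N17, 374 without N18, 376 without N22 and 410 without N23, but 1084 without N13 and 960 without N9.

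**Figure D1:**
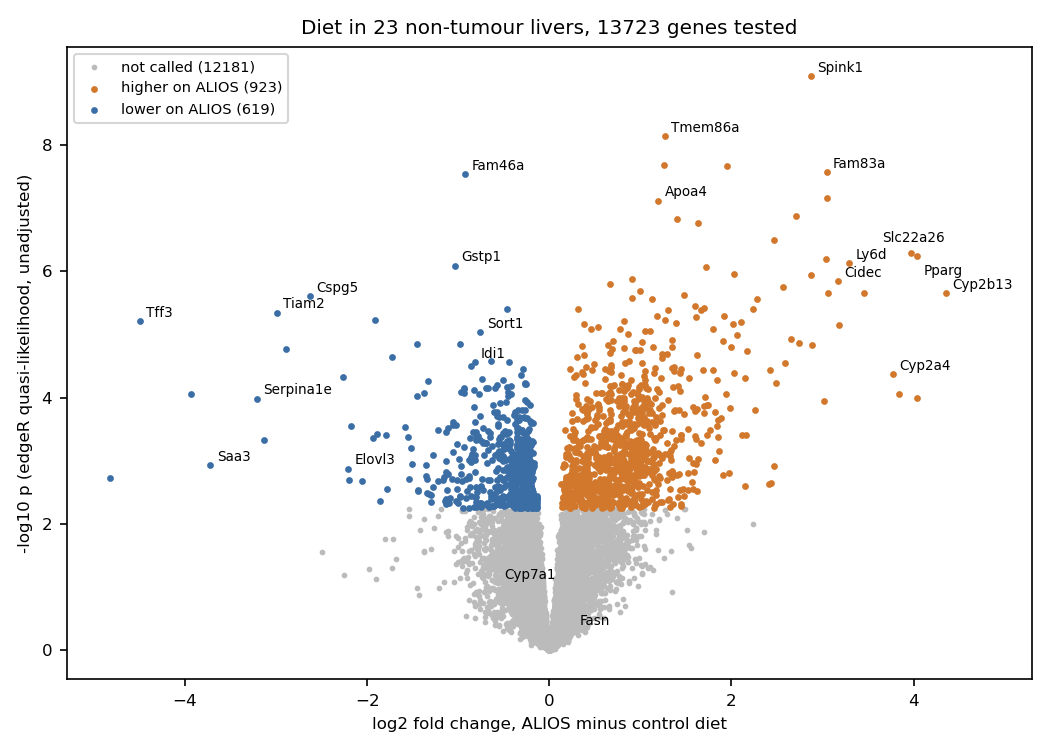
Each point is 1 of 13723 genes in the 23 non-tumour livers, with the log2 fold change of ALIOS minus control diet on the x axis and -log10 of the unadjusted edgeR quasi-likelihood p on the y axis (orange, 923 higher; blue, 619 lower; grey, not called). The largest called folds, such as Cyp2b13 at 4.35 and Tff3 at -4.50, lie at the outer edges, and Fasn and Cyp7a1 sit among the genes not called.

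Only 10 genes (0.0729% of those tested) were higher in all 11 ALIOS livers than in all 12 control livers, and 1 (Grm8, 0.00729%) was lower in all. The 10 were Spink1, Tmem86a, Arhgap10, Limch1, Fam83a, S100g, Apoa4, Gm11695, Setbp1 and Smpd3. Smpd3 and Grm8 are named here after their values were seen. Apoa4, an apolipoprotein of triglyceride-rich particles, was the abundant one, at 715 to 1836 CPM (median 1322) on control diet and 1981 to 4387 (median 2895) on ALIOS. Its log2 fold change was 1.2 ± 0.16 (SE), with an adjusted p of 0.00013. Spink1, a secreted trypsin inhibitor expressed in liver tumours, was rare at 0.124 to 0.892 CPM (median 0.387) on control diet and 1.26 to 6.29 (median 2.46) on ALIOS, a log2 fold change of 2.88 ± 0.30 (adjusted p = 1.1e-05). Tmem86a, a lysoplasmalogenase, rose from 9.19 to 22.7 CPM (median 12.9) to 22.8 to 53.2 (median 29.9), by 1.27 ± 0.15 on the log2 scale (adjusted p = 5.0e-05). These 3 remained called with any 1 liver left out and without the 5 control livers that stood apart.

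Sex-biased hepatocyte genes were called in both directions. Of 47 genes listed as higher in male mouse liver, 43 passed the filter, and 11 fell and 0 rose. Of 49 listed as higher in female liver, 38 passed, and 18 rose and 0 fell. The backgrounds are 4.51% lower and 6.73% higher. The median log2 fold change was -0.429 over the male-biased members and 1.04 over the female-biased members, against -0.022 over all genes tested. Summed, the male-biased members ran from 18414 to 31993 CPM (median 22542) on control diet and from 6794 to 20997 (median 12701) on ALIOS. Members that are low in control livers passed the filter only through the ALIOS group, which bears on the female-biased count. With a mean count of at least 100, 11 of 29 female-biased members rose, with a median of 0.648. At that setting 9 of 37 male-biased members fell (median -0.428), and over all 10154 genes 498 were higher and 359 lower. The lists were written with earlier results of these data known, so these counts are a description. Without the 5 control livers that stood apart, 6 male-biased members fell (background 1.22%) and 11 female-biased members rose (background 3.16%).

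Male-biased genes that fell included Serpina1e, a member of the alpha-1-antitrypsin cluster, the glutathione transferase Gstp1, the major urinary protein Mup3, the complement regulator Susd4, the G protein subunit Gna14 and the proteoglycan Cspg5. Serpina1e lay at 1114 to 15362 CPM (median 4552) on control diet and at 26 to 2201 (median 303) on ALIOS, with 9 of 11 ALIOS livers below every control liver. N17, N19 and N20 were lowest, at 26, 32.8 and 50.6 CPM, and N16 and N21 overlapped the controls at 1951 and 2201. Its log2 fold change was -3.21 ± 0.69 (adjusted p = 0.00681). It was -2.30 without the 5 control livers that stood apart, where the adjusted p was 0.0714. The other genes of the cluster were not called. Serpina1a had a log2 fold change of -0.29 (adjusted p = 0.0833), Serpina1b of -0.27 (0.146), Serpina1c of -0.08 (0.759) and Serpina1d of -0.06 (0.759). These 4 were chosen after their values were seen, and reads shared between such close copies make each split uncertain.

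The upstream sequences of Serpina1e and Serpina1b are shown because the 2 genes share nearly all of this sequence while only Serpina1e was called. The bases are the 250 before each RefSeq gene start on GRCm38.p6, on the gene's own strand, with capitals where the 2 differ. Over the 198 bases that align, 194 are identical (98.0%), with 1 gap, and the RefSeq starts are 50 bases out of register. Only differences are marked, and a difference is a description of the letters.
Serpina1e chr12:103956898-103957147 (-): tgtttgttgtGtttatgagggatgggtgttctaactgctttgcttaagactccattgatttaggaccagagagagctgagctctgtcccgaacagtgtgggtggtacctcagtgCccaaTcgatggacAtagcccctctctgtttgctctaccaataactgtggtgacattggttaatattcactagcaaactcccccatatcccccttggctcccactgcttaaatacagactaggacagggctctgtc
Serpina1b chr12:103738190-103738439 (-): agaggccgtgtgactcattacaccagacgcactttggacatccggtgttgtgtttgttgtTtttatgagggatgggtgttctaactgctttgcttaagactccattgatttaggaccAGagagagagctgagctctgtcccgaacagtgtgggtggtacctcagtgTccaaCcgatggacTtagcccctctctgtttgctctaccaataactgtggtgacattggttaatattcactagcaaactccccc

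Gstp1, a phase II enzyme that conjugates glutathione to electrophiles, was among the most abundant genes lowered. It lay at 668 to 1548 CPM (median 929) on control diet and 310 to 839 (median 445) on ALIOS, with 10 of 11 ALIOS livers below every control. N18 was the exception at 839 CPM. The log2 fold change was -1.03 ± 0.16 (adjusted p = 0.00065), and the call held with any liver left out and without the 5 (-0.82, adjusted p = 0.0125). Its neighbour and near copy Gstp2 was rare, with a median of 0.887 CPM on control diet and 0.477 on ALIOS, and fell by 0.81 on the log2 scale (adjusted p = 0.0191).

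Mup3 belongs to the urinary pheromone carriers that male liver secretes in bulk. It lay at 3841 to 8235 CPM (median 6132) on control diet and 2309 to 5294 (median 3745) on ALIOS, with a log2 fold change of -0.66 ± 0.16 (adjusted p = 0.0127) and 6 ALIOS livers below all controls. Susd4 had control values of 35.9 to 78.6 CPM and ALIOS values of 6.23 to 55.8, a log2 fold change of -1.11 ± 0.26 (adjusted p = 0.0112). Without the 5 it was -0.97 and not called (adjusted p = 0.0711). Cspg5 was at 0.830 to 11.4 CPM on control diet and 0.204 to 1.07 on ALIOS, with 10 of 11 ALIOS livers below every control, and fell by 2.63 (adjusted p = 0.00113). Its highest control values were N12 and N11, at 11.4 and 4.81 CPM. Without N11 and N12 the log2 fold change was -1.89 (adjusted p = 0.000546). Chosen after their values were seen, Mup21 changed by -1.93 ± 0.47 (adjusted p = 0.0129) with 9 ALIOS livers below all controls, and the steroid dehydrogenase Hsd3b5 by -1.44 ± 0.44 (adjusted p = 0.0348) with 10 of 11 below. Major urinary proteins are near-identical copies, so values for single members are uncertain. Of the male-biased genes not called, Mup20 had a log2 fold change of -0.20 (adjusted p = 0.684) and Slc22a30 of -0.35 (0.117), both also chosen after their values were seen.

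Elovl3, a male-biased elongase of very long chain fatty acids and a known clock output, was called with a log2 fold change of -2.21 ± 0.61 (adjusted p = 0.0221), but its control values were 21.3 to 56.0 CPM in 10 livers and 552 and 540 in N11 and N12. ALIOS values were 7.60 to 49.9. Without N11 alone the adjusted p was 0.0525, and without N11 and N12 the log2 fold change was -0.52 (adjusted p = 0.247).

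**Figure D2:**
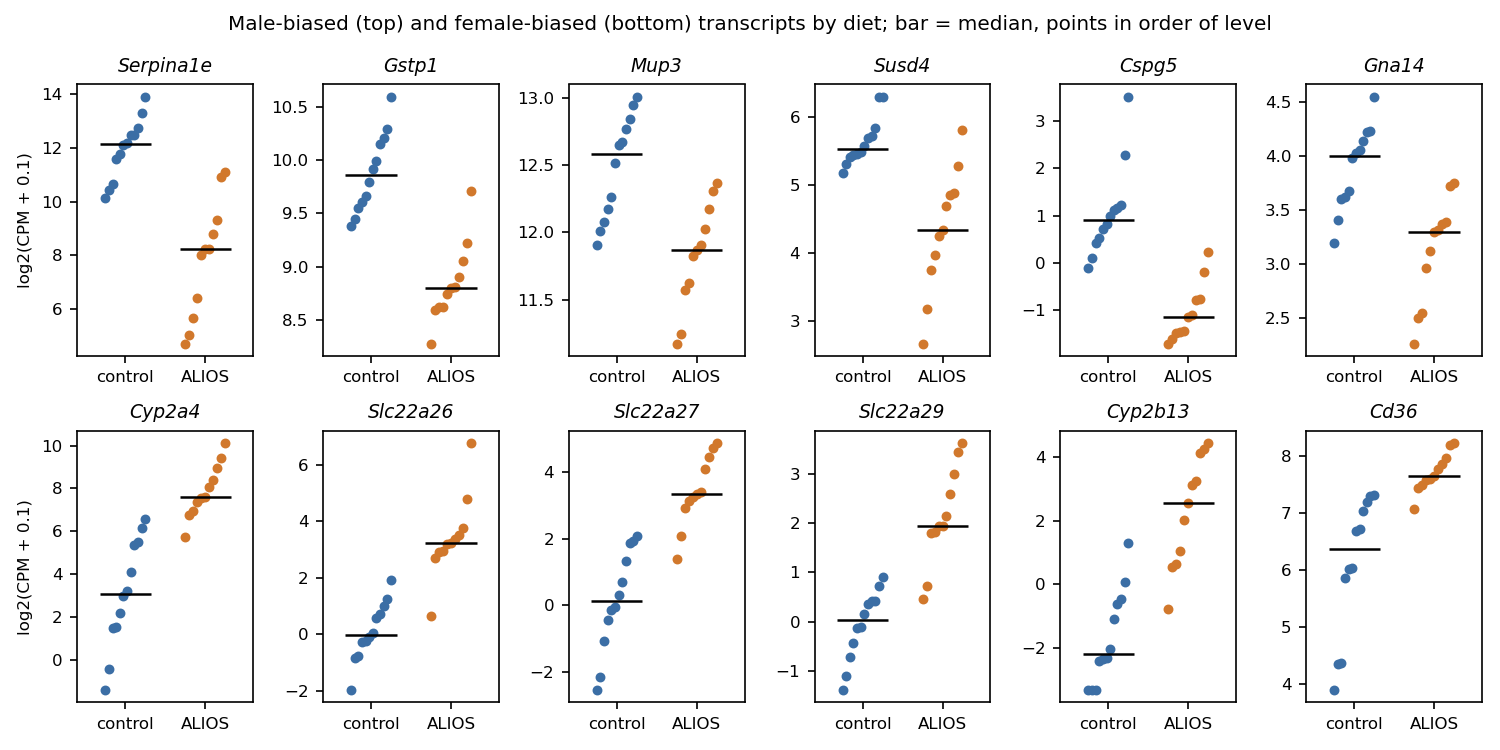
Levels of 6 male-biased (top) and 6 female-biased (bottom) transcripts in log2(CPM + 0.1) for each of 12 control (blue) and 11 ALIOS (orange) livers, points in order of level, bars at medians. Serpina1e falls from a median of 4552 to 303 CPM with an overlap of 2 livers, and Cyp2a4 rises from 8.50 to 193 CPM with 10 of 11 ALIOS livers above every control.

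Of the 18 female-biased genes that rose, 6 were cytochrome P450 enzymes and 3 were organic anion transporters. Cyp2a4, a testosterone hydroxylase, lay at 0.277 to 96.6 CPM (median 8.50) on control diet and 53 to 1100 (median 193) on ALIOS. Only N21, at 53 CPM, fell within the control range, and N23 was highest. The log2 fold change was 3.77 ± 0.76 (adjusted p = 0.0047), and 3.07 without the 5 (adjusted p = 0.021). The near-identical Cyp2a5, which is not in either sex-biased list, lay at 51.8 to 974 CPM on control diet and 479 to 1027 on ALIOS and was not called (0.58 ± 0.30, adjusted p = 0.202). It was chosen after its values were seen. Reads that fit both copies cannot be assigned to either.

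The upstream sequences of the Cyp2a pair and of Cyp2b9 and Cyp2b13 are shown because each pair of paralogues differs at few bases. The Cyp2a pair share 245 of 249 aligned bases (98.4%, starts 1 base out of register), and the Cyp2b pair 248 of 250 (99.2%). Capitals mark bases that differ within a pair, and the build and source are as above.
Cyp2a4 chr7:26306942-26307191 (+): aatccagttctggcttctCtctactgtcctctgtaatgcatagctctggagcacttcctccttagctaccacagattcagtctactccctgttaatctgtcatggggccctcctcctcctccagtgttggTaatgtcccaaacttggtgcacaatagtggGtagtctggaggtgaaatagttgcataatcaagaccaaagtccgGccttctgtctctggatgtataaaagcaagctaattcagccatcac
Cyp2a5 chr7:26835089-26835338 (+): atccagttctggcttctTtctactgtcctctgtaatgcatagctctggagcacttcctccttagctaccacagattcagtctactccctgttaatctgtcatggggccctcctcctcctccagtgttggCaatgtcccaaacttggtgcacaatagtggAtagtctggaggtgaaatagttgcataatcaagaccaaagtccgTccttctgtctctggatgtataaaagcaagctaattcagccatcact
Cyp2b9 chr7:26173159-26173408 (+): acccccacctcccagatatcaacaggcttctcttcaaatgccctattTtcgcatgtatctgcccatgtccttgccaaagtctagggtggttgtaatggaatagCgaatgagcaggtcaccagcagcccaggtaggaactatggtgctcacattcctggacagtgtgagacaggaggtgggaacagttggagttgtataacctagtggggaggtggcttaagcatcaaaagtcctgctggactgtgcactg
Cyp2b13 chr7:26061245-26061494 (+): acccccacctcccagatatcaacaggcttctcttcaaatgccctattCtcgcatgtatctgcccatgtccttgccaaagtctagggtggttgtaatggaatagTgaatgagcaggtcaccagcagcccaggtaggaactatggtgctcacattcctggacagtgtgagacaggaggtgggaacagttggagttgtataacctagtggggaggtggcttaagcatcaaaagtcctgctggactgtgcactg

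Cyp2b13 and Cyp2b10 belong to a cluster known for its response to the nuclear receptor CAR. Cyp2b13 lay at 0 to 2.37 CPM (median 0.121) on control diet and 0.482 to 21.6 (median 5.75) on ALIOS, with 7 ALIOS livers above all controls (log2 fold change 4.35 ± 0.71, adjusted p = 0.00108). Cyp2b10 was at 0 to 1.61 CPM on control diet and 0.757 to 4.53 on ALIOS (2.88 ± 0.45, adjusted p = 0.000786). Cyp2b9, which was chosen after its values were seen, was the more abundant, with medians of 11.1 and 138 CPM, and rose by 2.46 ± 0.67 (adjusted p = 0.0213). Both promoters of the Cyp2b9 and Cyp2b13 pair are shown above, and counts for these copies may be split.

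Slc22a26, Slc22a27 and Slc22a29 are organic anion transporters encoded together on chromosome 19. Slc22a26 lay at 0.154 to 3.66 CPM (median 0.876) on control diet and 1.48 to 108 (median 9.33) on ALIOS, with 10 of 11 ALIOS livers above every control, N21 being the exception at 1.48 CPM. The log2 fold change was 3.97 ± 0.59 (adjusted p = 0.000533). Slc22a27 rose by 3.06 ± 0.50 (adjusted p = 0.00108) and Slc22a29 by 2.47 ± 0.35 (adjusted p = 0.000366). In the same family, the male-biased Slc22a28 and Slc22a30, chosen after their values were seen, had log2 fold changes of -0.43 and -0.35 and were not called. The 250 bases upstream of Slc22a26 are shown because they hold 1 match to the STAT5 recognition letters TTCNNNGAA, in capitals at bases 110 to 118, beginning 141 bases before the start. Of the 16 called female-biased genes with a RefSeq promoter, 2 held such a match, Slc22a26 and A1bg. Of the 8 called male-biased genes with a RefSeq promoter, 0 did.
Slc22a26 chr19:7802668-7802917 (-): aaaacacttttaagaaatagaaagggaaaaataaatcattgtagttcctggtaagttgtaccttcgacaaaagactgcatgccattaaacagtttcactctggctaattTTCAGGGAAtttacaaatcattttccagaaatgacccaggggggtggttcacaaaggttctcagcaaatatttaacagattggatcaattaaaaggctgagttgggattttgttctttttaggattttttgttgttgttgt
These letters occurred in the 250 bases before the start in 7.18% of 27025 RefSeq promoters and 6.27% of those of all genes tested. They were in 5.19% of those of genes higher on ALIOS and 4.09% of those of genes lower. They read the same on both strands. The antioxidant response letters TGACNNNGC were in 12.2% of promoters of genes higher on ALIOS, 11.4% of those lower and 12.1% of those of all genes tested, and the E-box CACGTG in 7.02%, 8.18% and 8.46%.

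Other female-biased transcripts that rose were Cyp3a44 (log2 fold change 3.01), Cyp2c40 (4.04), the plasma glycoprotein A1bg (3.84), the transcription factor Tox (1.91), the fatty acid translocase Cd36 (1.30) and the oestrogen sulphotransferase Sult1e1 (1.52). Cyp2c40 and A1bg had wide ranges on ALIOS, 0.699 to 136 CPM and 0.254 to 29.1 CPM, with 4 and 5 of 11 livers above all controls. N23 held the highest values of Cyp2c40, A1bg and Cyp3a44, at 136, 29.1 and 318 CPM. The next ALIOS values were 8.83, 2.37 and 27.4 CPM. With 1 liver left out, their log2 fold changes fell as low as 1.65, 2.05 and 1.35, and each remained called. Without the 5 control livers that stood apart, their adjusted p-values were 0.053, 0.056 and 0.067. Sult1e1 lost its call without N19 (adjusted p = 0.0547). Neither Igf1 nor the transcripts of the regulators below were called, and the activity of these proteins was not measured. Igf1, made in liver under growth hormone, was at 587 to 863 CPM on control diet and 532 to 817 on ALIOS (-0.09 ± 0.09, adjusted p = 0.483). Stat5b, Bcl6 and Cux2, chosen after their values were seen, had log2 fold changes of -0.13, 0.41 and 0.06. The value for Cux2 (SE 0.80) rested on few livers. It was at 13.1 CPM in ALIOS liver N23 and at 10.3 and 2.93 CPM in control livers N5 and N4. The other livers lay at 0.223 to 0.650 CPM. Of 29 growth hormone, insulin-like growth factor and insulin signalling genes tested, 2 were called higher, the binding proteins Igfbp3 (0.96) and Igfbp7 (0.41).

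The sex-biased change was uneven across ALIOS livers. Averaged as z scores of log2(CPM + 0.5) over the list, male-biased genes were lowest in N17 (-1.42) and N19 (-1.32), followed by N23 (-0.78), N20 (-0.72) and N22 (-0.42). The other 6 ALIOS livers, N13 to N16, N18 and N21, lay at -0.06 to 0.47, within the control range of -0.13 to 0.75. For female-biased genes N23 was highest (1.21), and N21 (-0.48) and N16 (0.24) lay within the control range of -1.03 to 0.25. N17 and N19 also had the highest cell cycle (1.68 and 2.25), macrophage (1.67 and 1.75) and tumour marker (1.52 and 1.36) means. Their hepatocyte marker means were the lowest of the 23 livers (-1.12 and -0.78). Whether any of these bears on another was not tested. In bulk liver, fewer cells of a type and less RNA per cell cannot be told apart.

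**Figure D3:**
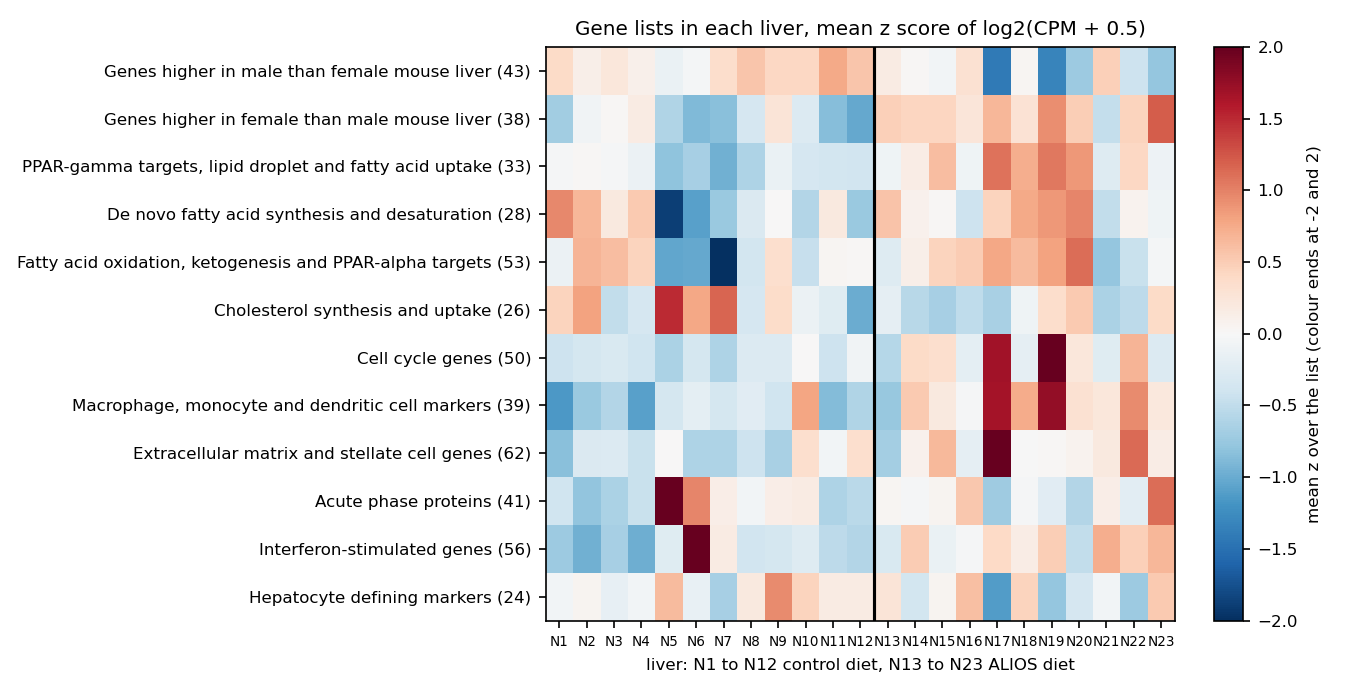
Mean z score of log2(CPM + 0.5) over the members of 12 gene lists in each of 23 livers, control diet left of the black line and ALIOS right of it (red above, blue below the mean, colours ending at -2 and 2). N17 and N19 are lowest for male-biased genes and highest for cell cycle genes, N5 to N7 are lowest for fatty acid oxidation, and N6 is highest for interferon-stimulated genes.

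Lipid storage genes were also among those higher. PPAR-gamma, encoded by Pparg, is the master regulator of fat storage and is low in normal hepatocytes. Of 33 PPAR-gamma target, lipid droplet and fatty acid uptake genes tested, 11 rose (33.3% against 6.73% of all genes) and 1 fell. The median was 0.271, and without the 5 control livers 8 rose (background 3.16%) and 0 fell. Pparg lay at 0.089 to 0.671 CPM (median 0.259) on control diet and 0.478 to 18.9 (median 2.08) on ALIOS, with 9 of 11 above all controls. N17, N19, N20 and N22 had the highest values, 18.9, 11, 9.49 and 7.84 CPM. The log2 fold change was 4.04 ± 0.60 (adjusted p = 0.000557).

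Among its targets, Cidec coats lipid droplets, Mogat1 makes diacylglycerol from monoacylglycerol and Vldlr takes up lipoprotein. Cidec rose from 0.318 to 1.36 CPM (median 0.528) to 0.585 to 24 (median 4.82), a log2 fold change of 3.16 ± 0.50 (adjusted p = 0.000876). Mogat1 changed by 3.46 ± 0.56 (adjusted p = 0.00108) and Vldlr by 2.24 ± 0.38 (adjusted p = 0.00141), with 7 and 8 ALIOS livers above all controls. Cd36 was the abundant one of these, at 14.8 to 160 CPM (median 84.5) on control diet and 134 to 298 (median 201) on ALIOS, with 10 of 11 above every control (1.30 ± 0.33, adjusted p = 0.0142). The lower member, Gpd1, which makes glycerol phosphate, changed by -0.43 (adjusted p = 0.0407), and its call was lost when any of 12 single livers was left out, with adjusted p-values up to 0.0717. The adipocyte-restricted markers Adipoq, Lep and Plin1 did not pass the filter.

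De novo synthesis was mixed. Of 28 fatty acid synthesis and desaturation genes, 3 rose and 1 (Elovl3, above) fell, with 0 and 0 called without the 5, where the median went from 0.234 to -0.005. Fads1 and Fads2, the desaturases of polyunsaturated fatty acids, rose by 0.65 ± 0.16 and 0.78 ± 0.20 (adjusted p = 0.0122 and 0.0146), and Scd2 by 1.75 ± 0.38 (adjusted p = 0.00744). The principal enzymes were not called: fatty acid synthase Fasn was at 366 to 3810 CPM (median 1086) on control diet and 627 to 3452 (median 1809) on ALIOS (0.26 ± 0.35, adjusted p = 0.655), and the stearoyl desaturase Scd1 at 1056 to 39349 and 6709 to 58872 (0.81 ± 0.55, adjusted p = 0.34). The regulator Srebf1 had a log2 fold change of 0.16 (adjusted p = 0.498). N5 to N7 held the lowest Scd1 values of all 23 livers.

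The cholesterol synthesis genes that were called were lower. Of 26 cholesterol synthesis and uptake genes tested, 0 rose and 4 fell, 15.4% against the background of 4.51%, with a median log2 fold change of -0.147. Without N5 to N7, 3 fell and the median was -0.049. Without the 5, 2 fell and the median was -0.075, and without N17, 2 fell. Idi1, which isomerises isopentenyl diphosphate, lay at 83.2 to 194 CPM (median 95.1) on control diet and 45.3 to 92.4 (median 62.8) on ALIOS, with 9 of 11 below all controls (-0.82 ± 0.16, adjusted p = 0.0039). It remained called with any 1 liver left out, and was at -0.62 without the 5 (adjusted p = 0.0261). Cyp51, a lanosterol demethylase, was at 139 to 417 CPM and 102 to 186 CPM (-0.60 ± 0.16, adjusted p = 0.0174), and at -0.31 without the 5 (adjusted p = 0.0892). The squalene synthase Fdft1 (-0.41) and the sterol carrier Stard4 (-0.33) lost their calls in 15 and 4 of the 23 fits with 1 liver left out. N5 to N7 carried the highest Idi1 values among controls, with N2.

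Few fatty acid oxidation genes were called. Of 53 fatty acid oxidation, ketogenesis and PPAR-alpha target genes, 6 rose and 0 fell (11.3% against 6.73% of all genes), with a median of 0.153. Without N5 to N7 there were 2, with a median of 0.05, and without the 5 there was 1, with a median of 0.016. Without N17 there were 2. Acot2, a mitochondrial acyl-CoA thioesterase, rose by 1.67 ± 0.42 (adjusted p = 0.014) and Aldh3a2, a fatty aldehyde dehydrogenase, by 1.03 ± 0.29 (adjusted p = 0.0228, or 0.0506 without N17). Cpt1a, the gate to mitochondrial oxidation, changed by 0.38 (adjusted p = 0.0475) and lost its call with 15 of the 23 single livers left out. Ppara itself was not called (0.18 ± 0.13, adjusted p = 0.358). N7 had the lowest mean z score of the list, at -2.0.

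Bile acid, apolipoprotein and carbohydrate genes moved little. Of 33 bile acid genes, 2 rose and 1 fell, with 1 and 0 without the 5, and Cyp7a1, the rate-limiting enzyme of bile acid synthesis, was at 71.8 to 796 CPM (median 299) on control diet and 121 to 388 (median 217) on ALIOS (-0.56 ± 0.32, adjusted p = 0.241). Fgfr4, the receptor through which gut signals restrain Cyp7a1, fell by 0.50 ± 0.10 (adjusted p = 0.00522). Of 26 apolipoprotein genes, Apoa4 and Apoc2 (0.62 ± 0.14, adjusted p = 0.00688) rose and Apom (-0.69 ± 0.17, adjusted p = 0.014), the carrier of sphingosine 1-phosphate, fell, with 2 and 0 called without the 5. Of 61 glycolysis, fructose, glycogen and gluconeogenesis genes, 3 rose and 0 fell, all 3 isozymes that predominate outside hepatocytes: Hk2 (1.33), Hk1 (0.46) and Pygb (0.69). Without the 5 the counts were the same, but not the genes. Hk2 remained called there (adjusted p = 0.0458), while Hk1 (adjusted p = 0.0796) and Pygb (adjusted p = 0.128) did not. Hk1 lost its call in 13 and Pygb in 8 of the 23 fits with 1 liver left out, and without N11 only 1 carbohydrate gene was higher. Ketohexokinase Khk (-0.01), Pck1 (-0.20) and G6pc (-0.88, adjusted p = 0.12) were not called.

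Urea cycle and amino acid genes were close to background, with 1 of 87 higher and 4 lower, and 0 and 1 without the 5. Those lower were Acmsd (-0.84), Ccbl1 (-0.60), Hal (-0.35) and Glud1 (-0.22), which act on tryptophan metabolites, kynurenine, histidine and glutamate. Hal, also the only hepatocyte marker called, and Glud1 each lost the call with 16 of 23 single livers left out. Cps1, the first step of the urea cycle, was at 2236 to 4663 CPM and 2151 to 4518 CPM (-0.09 ± 0.13, adjusted p = 0.697). None of 78 nuclear respiratory chain subunits was called by edgeR and 1 by DESeq2, with 2 at an unadjusted p under 0.05, and without N9, 8 rose. Without N9 there were also 7 amino acid and 9 carbohydrate genes higher, and without N12, 0 amino acid genes.

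Cytochrome P450 families 1 to 3 had 9 of 42 higher (21.4% against 6.73%) and 2 lower, with 5 and 1 without the 5. Of the 9 higher, 6 were on the female-biased list. Cyp2c39, which is not, lay at 15.9 to 91.3 CPM (median 55.7) on control diet and 82.3 to 211 (median 105) on ALIOS, with 10 of 11 above all controls (1.15 ± 0.23, adjusted p = 0.0046). The arachidonate epoxygenase Cyp2j9 (-0.80) and Cyp2u1 (-0.68) fell. Major drug-metabolising enzymes were not called, Cyp2e1 at -0.02 and Cyp3a11 at 0.23. Glutathione and NRF2 targets had 8 of 50 higher, including the quinone reductase Nqo1 (0.94 ± 0.18, adjusted p = 0.00296) and G6pdx (1.16 ± 0.29, adjusted p = 0.0131), and 2 lower, Gstp1 and Gstp2, with 5 and 1 without the 5.

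**Figure D4:**
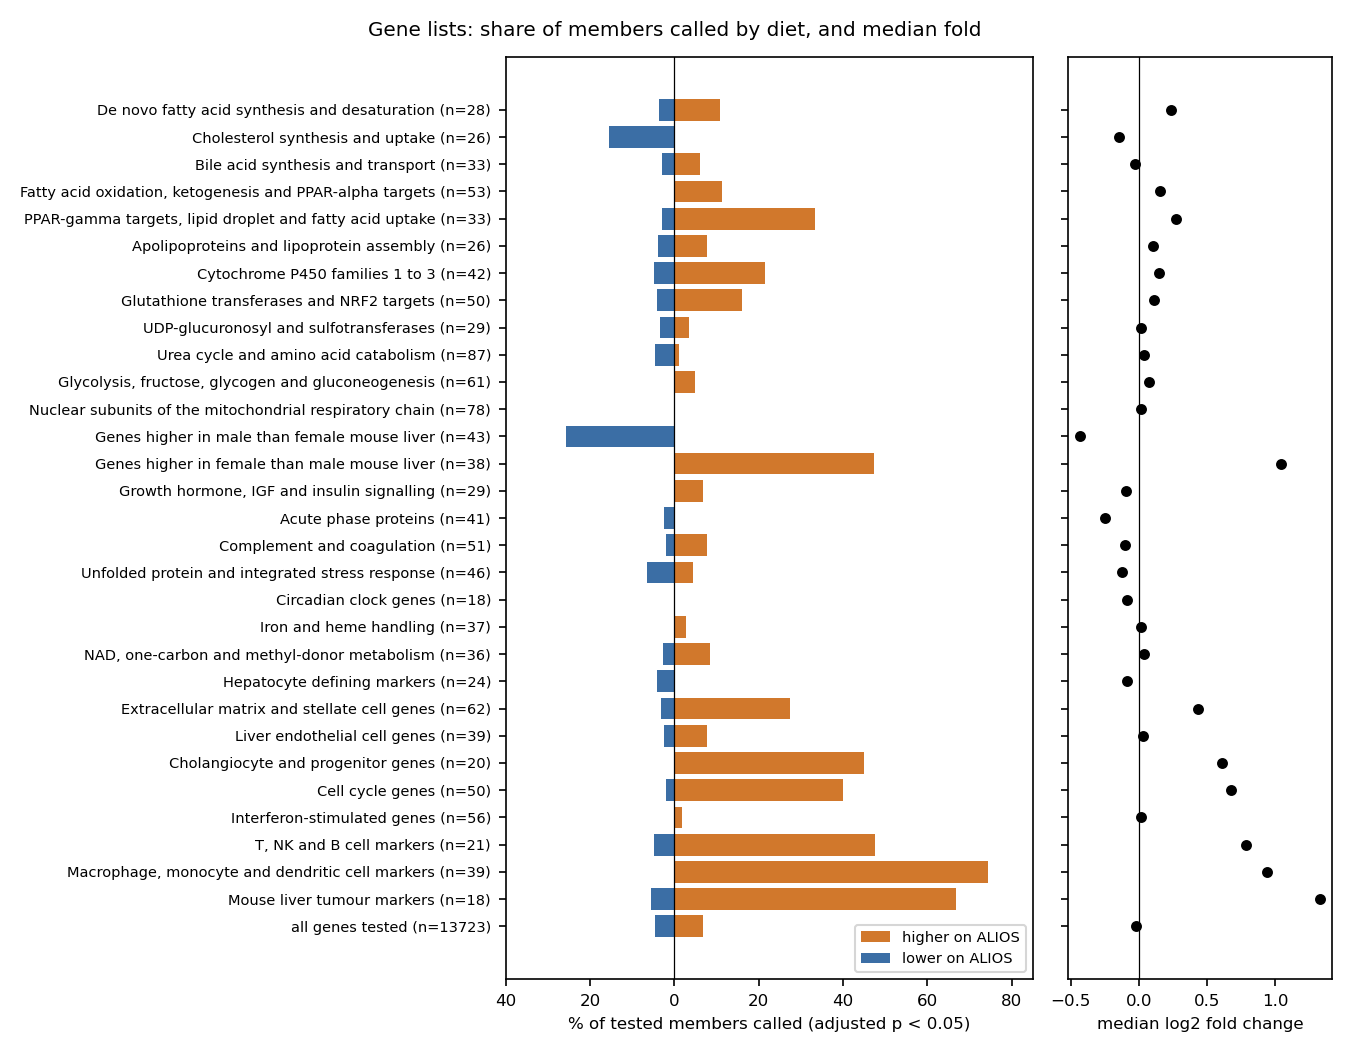
Left, percent of tested members of each gene list called higher (orange) or lower (blue) on ALIOS at an adjusted p under 0.05, beside all 13723 genes (6.73% and 4.51%); right, median log2 fold change. Of the lists plotted, male-biased genes have the highest percent lower (25.6%), and female-biased genes stand at 47.4% higher.

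Other genes named for a small p or a large fall had varied roles. Gm4841 (-4.82, adjusted p = 0.027) rested on 1 control liver, N6, at 277 CPM against at most 0.892 in the other 11, and was at 1.13 without it. Tff3, a mucosal trefoil peptide, lay at 5.75 to 368 CPM (median 14.7) on control diet and 1.15 to 8.74 (median 2.89) on ALIOS, with 10 of 11 below all controls (-4.50 ± 0.78, adjusted p = 0.00176). Its highest control values were N7 and N5, at 368 and 290 CPM. Without the 5 the log2 fold change was -2.56 (adjusted p = 0.0073). Fam46a was at 12.2 to 25.8 CPM and 6.83 to 12.9 CPM, with 10 of 11 below (-0.92 ± 0.12, adjusted p = 6.6e-05). Sort1, a sorting receptor in hepatic lipoprotein secretion, was at 16.9 to 32.9 CPM and 7.57 to 23.8 CPM (-0.76 ± 0.14, adjusted p = 0.00208). Tiam2 (-2.99), the lipocalin Obp2a (-2.89), Gcnt4 (-1.73), Nuggc (-1.91), Mmd2 (-1.45), carbonic anhydrase Car14 (-0.98) and Bend7 (-0.47) also fell. Enho, the hormone adropin, fell by 2.27 ± 0.46 (adjusted p = 0.00495), and the overlapping Dnaic1 changed by -3.93. How the counting used strand is not given, so the 2 cannot be told apart here. Neither was called without the 5 control livers that stood apart, with Enho at -1.57 (adjusted p = 0.0619) and Dnaic1 at -1.49 (adjusted p = 0.138). Dnaic1 was highest in N5 and N7, at 29.3 and 35.5 CPM.

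Markers of other cell types and proliferation genes are given beside the metabolic results. Over all genes tested, 6.73% were higher and 4.51% lower with all livers, and 3.16% and 1.22% without the 5. Members that are low in control livers passed the filter only through the ALIOS group, which bears on the counts of rare transcripts. Macrophage, monocyte and dendritic markers had 29 of 39 higher, 19 without N17 and 13 without the 5, with a summed level of 435 to 1229 CPM on control diet and 530 to 2131 on ALIOS. Cell cycle genes had 20 of 50 that passed the filter (of 70 listed) higher and 1 lower, and 6 and 1 without the 5. Without N19, 12 were higher. Ccnd1, which drives G1, rose by 1.70 ± 0.29 (adjusted p = 0.00141), and Mki67, the proliferation marker, from 0.447 to 1.93 CPM to 0.918 to 10.0 (1.69 ± 0.38, adjusted p = 0.00831), highest in N19 and N17. The lower member was Mcm10, a replication factor, at medians of 132 and 76.7 CPM (-0.67). Its level was far above that of Mcm2 to Mcm5, at 0.953 to 4.46 CPM on control diet. Which cells its counts came from was not tested. Cholangiocyte and progenitor genes had 9 of 20 higher, including Epcam (1.73) and Krt23 (2.15), with 4 without N17 and 3 without the 5. Extracellular matrix genes had 17 of 62 higher and 2 lower, 8 higher without N17, 26 without N13, and 5 and 0 without the 5, and Col1a1 was not called (1.70 ± 0.64, adjusted p = 0.0812). T, NK and B cell markers had 10 of 21 that passed (of 43 listed) higher, 5 without N17 and 0 without the 5. Zap70, at 5.08 to 13.5 CPM on control diet against 0.035 to 0.434 for the T cell marker Cd3e, was called lower (-0.69). That call was lost in 17 of the 23 fits with 1 liver left out. What part these cells have in the metabolic changes was not tested.

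Hepatocyte transcription factors had 4 of 48 higher and 1 lower, and 3 and 1 without the 5. Besides Pparg and Tox, Esrrg, an orphan receptor of energy metabolism, rose by 0.98 ± 0.27 (adjusted p = 0.0232), and the C/EBP family member Cebpd by 0.78 ± 0.21 (adjusted p = 0.0196). Tcf7l2, the effector of Wnt signalling, fell by 0.36 (adjusted p = 0.0112). Hnf4a, the hepatocyte identity factor, lay at 386 to 584 CPM on control diet and 321 to 506 on ALIOS (-0.12 ± 0.08, adjusted p = 0.338), and albumin (Alb) at 54738 to 96936 and 44066 to 95322 (-0.14 ± 0.16, adjusted p = 0.581).

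Zonated genes had few calls. Of 39 pericentral and beta-catenin target genes, 3 rose and 2 fell, and of 30 periportal genes, 1 rose (Apoa4) and 2 fell. Without the 5 these were 1 and 0, and 1 and 1. Notum, a secreted Wnt inhibitor, fell by 0.58 ± 0.13 (adjusted p = 0.00877). Etnppl, a phospholyase of phosphoethanolamine, lay at 31 to 183 CPM (median 75) on control diet and 21.2 to 64.9 (median 34) on ALIOS, and fell by 1.06 ± 0.25 (adjusted p = 0.0103). Glul, the glutamine synthetase of the innermost pericentral cells, was at 485 to 1013 CPM and 484 to 1220 CPM and was not called (0.15 ± 0.13, adjusted p = 0.453).

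The remaining metabolic lists had few members called. Over all genes tested, 6.73% were higher and 4.51% lower, and 3.16% and 1.22% without the 5. Of 36 NAD, one-carbon and methyl-donor genes, 3 rose and 1 fell, with 2 and 3 without the 5. The folate hydrolase Folh1 rose from 0.277 to 1.01 CPM to 0.545 to 3.59, with 10 of 11 ALIOS livers above all controls (1.6 ± 0.27, adjusted p = 0.00141), and the ectonucleotidase Nt5e rose by 1.10 ± 0.24 (adjusted p = 0.00744). Aox3, an aldehyde oxidase that is abundant in mouse liver, lay at 353 to 917 CPM (median 595) on control diet and 182 to 508 (median 357) on ALIOS, a log2 fold change of -0.81 ± 0.19 (adjusted p = 0.0118). Of 16 sterol export genes 2 rose, Npc2 (0.32) and Soat1 (0.62, lost without N17 or N19), and 0 without the 5. Of 29 UDP-glucuronosyl and sulphotransferase genes, Sult1e1 rose and Ugdh (-0.34) fell. Of 37 iron and heme genes, 1 rose, Id1, a target of bone morphogenetic protein signals, by 1.44 ± 0.29 (adjusted p = 0.00438), and the iron hormone Hamp was not called (0.57, adjusted p = 0.275).

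Of 46 unfolded protein and integrated stress response genes, 2 rose and 3 fell, with a median of -0.126, and 3 and 0 without the 5, with a median of 0.12. Ern1, the IRE1 sensor of the endoplasmic reticulum, lay at 49.1 to 108 CPM and 38.6 to 71.2 CPM (-0.56 ± 0.13, adjusted p = 0.0107). Asns (-1.30) and Psph (-0.27), enzymes of asparagine and serine synthesis, were called lower, but Asns was not called in 10 and Psph in 2 of the 23 fits with 1 liver left out. Fgf21, the stress hormone, was not called (-0.12, adjusted p = 0.873). Of 51 complement and coagulation genes, 4 rose, the macrophage-made C1qa, C1qb and C1qc and the myeloid Cfp, and 1 fell. That was C4a, the sex-limited complement protein of mouse, at 111 to 553 CPM (median 211) on control diet and 18.7 to 260 (median 62.4) on ALIOS (-1.52 ± 0.39, adjusted p = 0.0154). Without the 5 control livers, 3 complement and coagulation genes were higher and 1 lower. The lower gene was not C4a, which was not called there (-1.3, adjusted p = 0.0844). C4a was not placed on the male-biased list, and it shares sequence with C4b, so its counts are uncertain.

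The short lists for other cells gave mixed values. Of 18 liver tumour markers that passed the filter (of 24 listed), 12 rose (66.7% against 6.73% of all genes) and 1 fell (Tff3). Markers that are low in control livers passed only through the ALIOS group, which raises this share. With a mean count of at least 100, 5 markers were tested, of which 3 rose and 1 fell. Their median log2 fold change was 0.678, against 1.33 for the 18. Over all genes at that setting, 498 of 10154 were higher. Without the 5, 3 rose and 1 fell, against backgrounds of 3.16% and 1.22%. Afp, the fetal marker, was at 0.484 to 1.52 CPM on control diet and 0.362 to 1.18 on ALIOS (-0.12 ± 0.21, adjusted p = 0.731). Ly6d, among the 12, lay at 0.257 to 3.93 CPM and 1.46 to 45.4 CPM, with 10 of 11 ALIOS livers above all controls (3.30 ± 0.50, adjusted p = 0.000629). Of 39 liver endothelial genes 3 rose and 1 fell, led by the lymphatic and sinusoidal receptor Flt4 (0.80 ± 0.17, adjusted p = 0.00678). Of 33 p53 targets 3 rose and 2 fell. Endothelial genes higher numbered 1 without N17 and 5 without N13, and so did p53 targets. Without the 5, endothelial genes had 2 higher and 0 lower, as did p53 targets. Of 6 adipocyte markers that passed 2 rose, Fabp4 and Cidec, and 1 without the 5. None of 8 neutrophil, 4 erythroid or 18 clock genes that passed was called by edgeR or DESeq2, with 0, 2 and 2 at an unadjusted p under 0.05. Without N5 to N7, 3 of the 8 neutrophil genes were higher (median 0.882 against 0.398) and 1 erythroid gene was lower, and without the 5, 1 clock gene was lower. Cela1, the only 1 of 18 pancreatic acinar markers to pass the filter, lay at 42.2 to 84.8 CPM in the control livers. It fell by 0.70 (adjusted p = 0.0141) and was not called without the 5.

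Acute phase and interferon-stimulated genes depended on the control livers that stood apart. Of 41 acute phase genes, 0 rose and 1 (Saa3) fell, with a median of -0.25. Without N5 to N7, 7 rose and 0 fell, with a median of 0.249. Saa3 was -3.72 ± 1.01 (adjusted p = 0.0208), with control values up to 679 CPM in N5, and lost its call without N5 (adjusted p = 0.0526). Saa1 had a log2 fold change of -1.43 (adjusted p = 0.308) in all livers and 2.44 (adjusted p = 0.00921) without N5 to N7. Interferon-stimulated genes had 1 of 56 higher, Ifi27l2a (0.95), whose adjusted p was 0.0589 without N19. Without N6 there were 29, and without N5 to N7 35 (median 0.677), with 31 when N11 and N12 were left out as well. Over all genes, 6.71% were higher without N5 to N7 and 3.16% without the 5.

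**Figure D5:**
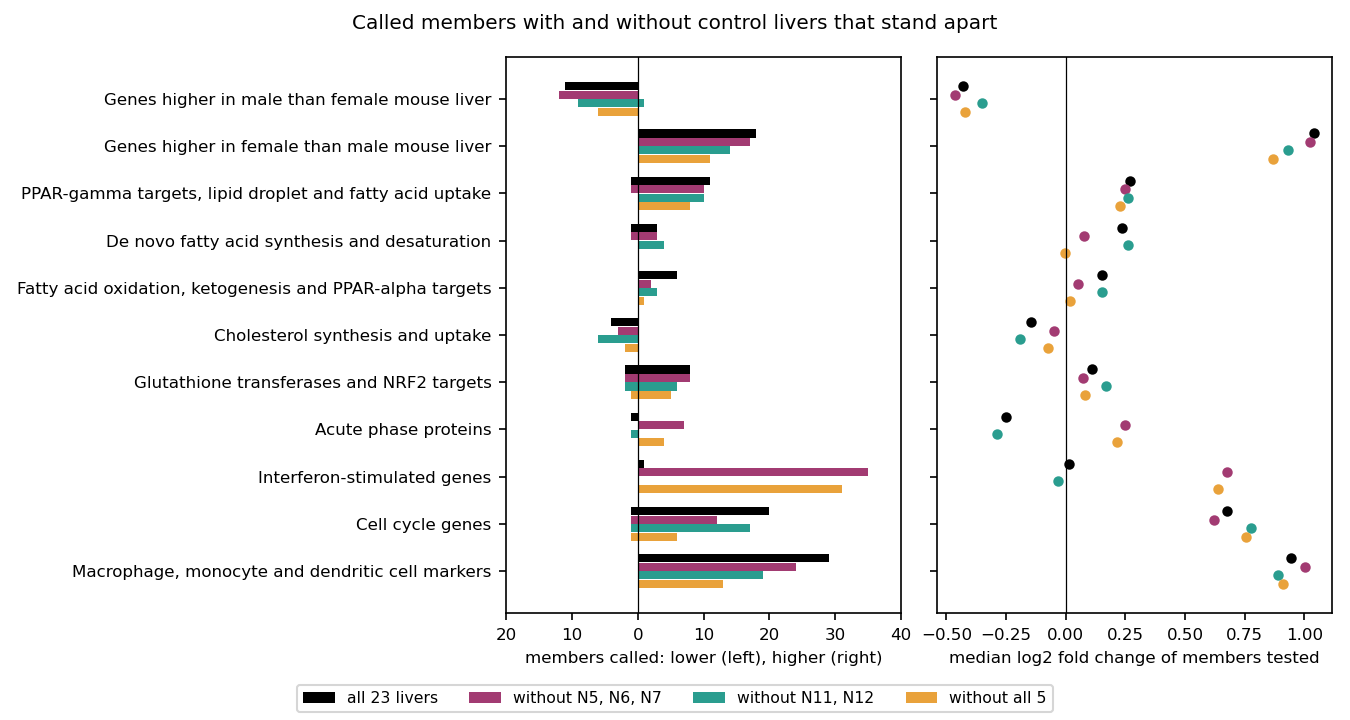
Left, members of 11 gene lists called lower (left of 0) and higher (right of 0) on ALIOS with all 23 livers and with control livers N5 to N7, N11 and N12, or all 5 left out; right, the median log2 fold change of the members tested. Interferon-stimulated genes go from 1 to 35 called higher without N5 to N7, and male-biased genes keep 6 called lower without all 5.

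Diet was also compared in tumours from mice given DEN (5 control diet, 8 ALIOS). There 2 of 14944 genes (0.0134%) were called, the kinases Nmrk1 (-1.41) and Sik1 (-0.85), both lower, with 1273 at an unadjusted p under 0.05 and 155 called by DESeq2, and 0 to 19 were called with 1 tumour left out. Of the 1542 liver calls 1508 were tested in the tumours and 857 had the same direction there. A test of the difference between the 2 effects called 354 of 15606 genes (2.27%), 162 positive (1.04%) and 192 negative (1.23%), with 123 of the 354 among the liver calls. The livers that gave those calls also enter this test, so a difference opposite in sign to the liver effect is partly built in. Cyp2a4 (-5.28), Cyp2b13 (-4.73), Slc22a26 (-4.35), Cidec (-3.93) and Pparg (-3.13), all higher on ALIOS in liver, had a tumour effect lower than the liver effect by these log2 amounts, while for Elovl3 it was higher by 6.93, a liver effect that rested on N11 and N12 as given above.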

How the data were processed

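Stranded mRNA libraries (Illumina kit, per the study's methods) made from total RNA of 23 non-tumour livers, with 13 DEN tumours for 1 comparison, were analysed from the raw count table of 50 libraries that the authors deposited. Per the labels, only RNA with an integrity number above 8.0 was sequenced. The authors made the counts with STAR and HTSeq on mm10 as the submitters' processing notes and the study's methods give them (Gencode M6 exons, intersection-nonempty), and versions are not given in the sources used here. Although the kit keeps strand, the strand setting of the counting is not given, so overlapping and antisense genes are uncertain, as are near-identical copies. Groups came from the labels' tissue and diet. All 50 libraries have a column, and 0 columns were unused.

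Counts were fitted with edgeR 4.0.16 (limma 3.58.1, R 4.3.3), with filterByExpr, TMM scaling and the quasi-likelihood test, for 12 control against 11 ALIOS livers. CPM are counts per 1000000 of TMM-scaled libraries. The authors used DESeq2, here an alternative (1.42.0). The 23 livers held 23968280 to 35091968 counts, and their number limits precision. Scripts were tested on simulated data. A gene was called at an adjusted p under 0.05 (Benjamini-Hochberg). Named genes are the 12 in each direction with the smallest p, the 10 in each direction with the largest fold at a mean of at least 1 CPM, up to 6 called members per direction of each of 40 lists (the 2 with the smallest p where fewer were called) and 29 set anchors, 194 in all, of which a few are not reported here. The members and lists were chosen with earlier results of these data known. Upstream sequences and promoters (27025, of which 9951 matched tested genes) are RefSeq's for GRCm38.p6. Motifs were searched on both strands. Alternatives were other scalings, filters, tests and sample sets, each liver left out in turn, and 3 sets of control livers left out that were chosen after seeing the data.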

Additional observations from a re-analysis of the deposited data

Results flagged for a closer look

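For 33 of the 194 named genes the diet effect differed between DEN tumours and non-tumour liver in the interaction test of edgeR (adjusted p under 0.05 over 15606 genes). Over all 15606 genes, 2.27% were called in that test. Many of the 194 were picked for a small p or large fold in the same livers that enter it. A difference opposite in sign to the liver effect is therefore partly built in. Values, given for 32 of the 33, are the log2 diet effect in tumours minus that in liver. The difference was negative for the female-biased Slc22a29 (-2.77), Slc22a26 (-4.35), Slc22a27 (-2.7), Cyp2b13 (-4.73), Tox (-2.35) and Cyp2a4 (-5.28), for the lipid genes Pparg (-3.13) and Cidec (-3.93) and for the cell cycle genes Ccnd1 (-2.15), Mcm5 (-2.07) and Uhrf1 (-2.99). It was also negative for Spink1 (-2.94), Tmem86a (-1.77), Limch1 (-2.13), Ly6d (-3.15), Mmp12 (-3.82), Nqo1 (-1.72), Itgax (-3.03), Id1 (-1.75), Cbr3 (-2.94), Srxn1 (-0.88) and Ezr (-1.74). It was positive for Nuggc (3.22), Cyp2c39 (4.75), Notum (4.41), Elovl3 (6.93), Col5a3 (2.81), Slc22a3 (5.57), Gadd45g (4.11), Clock (1.61), Arntl (5.06) and Glul (4.81). For 4 of these the liver effect rested largely on control livers N11 and N12, and without them the liver log2 fold change went from -1.38 to 0.44 for Arntl, from -0.51 to -0.17 for Clock, from -2.21 to -0.52 for Elovl3 and from -1.86 to -0.95 for Gadd45g. Spink1, for example, was at 8.47 to 120 CPM in control diet tumours and 9.60 to 174 in ALIOS tumours. With 5 and 8 tumours, single libraries weigh heavily, and leaving out 1 tumour gave 174 to 732 such genes over the whole table.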

How the results depend on the processing

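The diet effect on single genes kept its sign in nearly all alternatives, while counts of calls moved. With a mean count of at least 100, 857 genes were called (498 higher, 359 lower), and with at least a 2-fold change 343 (277 and 66). DESeq2 called 2200 in liver (981 lower), 155 in the DEN tumours and 657 for the difference between tissues. With all 50 libraries in 1 fit, 360 genes were called (294 and 66), and without the 5 control livers that stood apart 616 (444 and 172). Without a filter on low counts, 1 gene was called in the tumours. Leaving out each liver or tumour in turn gave 949 to 2343 calls in liver (609 to 1259 higher, 339 to 1084 lower), 0 to 19 in the tumours and 174 to 732 for the difference between tissues. Gm4841 reversed, from -4.82 to 1.08 (DESeq2), 0.38 (limma-voom), 1.13 without N6 (-5.03 to 1.13 over all single livers left out), 1.23 without N5 to N7 and 1.40 without the 5. N6 alone held it at 277 CPM. Of genes not called, Saa1 reversed from -1.43 to 2.44 without N5 to N7, 2.23 without the 5 and 0.99 in limma-voom, Lcn2 from -1.91 to 2.10, 1.78 and 0.99, and Arntl from -1.38 to 0.44 without N11 and N12, 0.45 without the 5 and 0.40 in DESeq2. Fasn, Fgf21, Ppara, Srebf1, Khk, Cyp3a11 and Cyp2e1, also not called, changed sign in at least 1 alternative. Of 158 named and called genes, 118 remained called with each liver left out in turn, 134 without N5 to N7, 126 without N11 and N12 and 77 without all 5, and 157 kept their sign without the 5. Genes under about 1 CPM are limited by depth. No paired analysis was possible because the livers of the 2 diets share no replicate numbers. The cause of these shifts was not tested.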
